A study of Mus musculus with 354 samples.

Results

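The cells described here are the Erbb2-detected CA-ERBB2 cells, chosen by their Erbb2 count: CA-ERBB2 cells with a total of at least 100000 counts and at least 1 Erbb2 count. There were 82 such cells among the 175 CA-ERBB2 cells that reached this total, of 177 CA-ERBB2 cells and 354 cells in all. The other 93 CA-ERBB2 cells had an Erbb2 count of 0 and served as the comparison group, the Erbb2-undetected cells. Each cell was a GFP+ cochlear cell sorted by FACS from P3 mouse pups and sequenced on its own. CA-ERBB2 pups carried TetON-CAERBB2, a doxycycline-driven transgene for a constitutively active ERBB2, besides the driver Fgfr3-iCre and the reporter ROSA-floxed-rtTA/GFP. In this design the Fgfr3 promoter, active in supporting cells, sets which cells can switch on the reporter and the transgene. Control pups were littermates with the same driver and reporter and no ErbB2 transgene. The protocol gave tamoxifen (75 mg/kg) at P0 and P1 and doxycycline (100 mg/kg) at P2. The treatment label stands on the CA-ERBB2 samples alone, and the protocol text on all samples. Cells of several pups were pooled for each plate, so a cell could not be traced to a pup, and the sort selected the reporter and not the transgene. The counts do not separate transcripts of the transgene from those of the mouse Erbb2 gene (chromosome 11, 98412470 to 98437716, plus strand, GRCm38).

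ERBB2 is a receptor tyrosine kinase of the EGF receptor family. It has no ligand of its own and normally signals after pairing with another family member such as ERBB3, which binds neuregulins. Its main outputs are the RAS-ERK and PI3K-AKT pathways. ERK induces its own brakes, among them the phosphatase DUSP6 and the Sprouty proteins, together with the ETV transcription factors. Supporting cells are the non-sensory cells that surround the hair cells of the organ of Corti, and neuregulin-ERBB signaling is known to act on their survival and proliferation. Spp1 encodes osteopontin and Dmp1 dentin matrix protein, secreted glycoproteins of the SIBLING family that bind integrins. Mmp9 encodes a matrix metalloproteinase and Timp1 an inhibitor of metalloproteinases. The study chose these 4 genes on the same cells, as leading genes of a cluster of CA-ERBB2 cells, so their presence in CA-ERBB2 cells is not new evidence here. The question here is narrower: whether a CA-ERBB2 cell in which Erbb2 was seen also carried more of this response than a CA-ERBB2 cell in which it was not.

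Plates, 3 of each genotype, served as replicates, whereas cells did not. Total counts of the members ran from 610153 to 5160875, with a median of 3238980. Those of the Erbb2-undetected cells ran from 105218 to 4439263, with a median of 2216973. CA-ERBB2 cells in wells A12 to D12 stood apart, with 9838 to 19521 genes detected (median 15672, n = 12 cells) against a median of 3329 genes elsewhere. Of these 12 cells, 11 were members, and the main results that touch them are also given without them. The supporting cell label was checked against its markers. Of 14 supporting cell markers, all had counts in some members, from Serpine2 in 79 of 82 cells to Pdzk1ip1 in 17. Sox2 was seen in 39 members and 7 Erbb2-undetected cells. In the cells matched below on genes detected, it was seen in 6 members and 6 Erbb2-undetected cells. Markers of mesenchyme were also common, with Col1a2 counts in 73 members and 61 Erbb2-undetected cells.

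Erbb2 was detected in 43 of 59 CA-ERBB2 cells on plate 1 (72.9%, 95% exact binomial interval 59.7 to 83.6%), 22 of 58 on plate 2 (37.9%, 25.5 to 51.6%) and 17 of 58 on plate 3 (29.3%, 18.1 to 42.7%). The Erbb2 level is given in CPM, the counts scaled to a fixed library total. On plate 1 the members ran from 0.454 to 821 CPM with a median of 127. On plate 2 they ran from 0.268 to 504 CPM with a median of 37.9, and on plate 3 from 0.318 to 1125 CPM with a median of 40.4. The levels of the members on the 3 plates thus overlapped over almost their whole range, and each plate held cells from below 1 CPM to above 500. Detected counts were mostly far from the threshold of 1. The median member had 176.5 Erbb2 counts and the highest 4504, while 4 members had exactly 1 count and 11 had 10 or fewer. For the comparison group, a count of 0 allows a level of up to 1.35 CPM at the median depth (3 counts of the total), and between 0.676 and 28.5 CPM across these cells. These limits and the binomial intervals cover counting error only, since the reads carried no molecular identifiers.

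**Figure D1:**
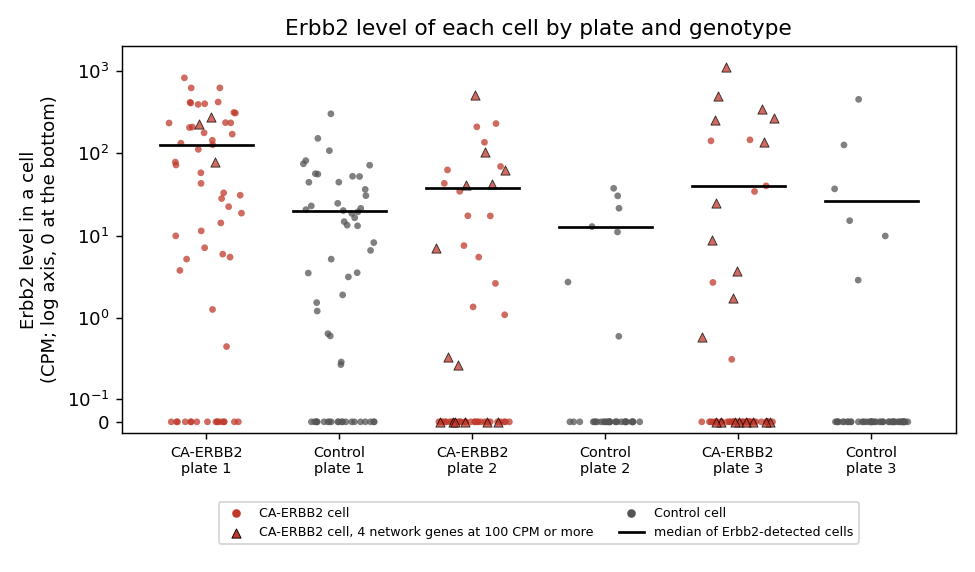
Erbb2 level of every cell with at least 100000 counts, in CPM on a log axis with 0 at the bottom, by plate and genotype. Points are cells, triangles are CA-ERBB2 cells with all 4 network genes at 100 CPM or more, and bars mark the median of the cells with an Erbb2 count (127, 37.9 and 40.4 CPM in CA-ERBB2). Triangles lie at 0 as well as at high Erbb2 levels.

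Erbb2 was not confined to cells with the transgene. It was detected in 51 of 144 Control cells (35.4%, 27.6 to 43.8%), namely 38 of 59, 7 of 36 and 6 of 49 by plate. The detected Control cells had median levels of 19.9, 12.9 and 26.2 CPM on plates 1 to 3, each below the CA-ERBB2 median of the same plate number. The highest Control level was 450 CPM, and 6 of the 82 members lay above it. At 100 CPM or more there were 36 members (23, 5 and 8 by plate) and 5 Control cells. Detection of Erbb2 was thus shared by both genotypes. Since Erbb2 chose the members, these levels are a description.

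Members had richer libraries than the cells without Erbb2 counts. The median member on plate 1 had 10999 genes detected (Erbb2 left out) against 8502 in Erbb2-undetected cells. The medians were 4614 and 2002 genes on plate 2, and 6674 and 1197 genes on plate 3. The difference averaged 3529 ± 1688 genes (SD, n = 3 plates) and had the same direction on all 3 plates. The exact sign permutation test over plates gave a two-sided p of 0.25, the smallest that 3 plates allow. Without wells A12 to D12 it was 2437 ± 917 genes (SD, n = 3 plates). With each library thinned to 100000 counts the difference was 2500 ± 1302 genes (SD, n = 3 plates). Control cells divided the same way differed by 6732 ± 3466 genes (SD, n = 3 plates).

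Detection of Erbb2 climbed with the number of genes detected in either genotype. Among CA-ERBB2 cells with fewer than 2000 genes, 2 of 54 had an Erbb2 count (3.7%, 0.452 to 12.7%). Among Control cells of this class it was 0 of 32 (a limit of 9.38% as 3 of 32 cells, exact upper bound 10.9%). From 2000 to below 5000 genes the shares were 17 of 42 (40.5%, 25.6 to 56.7%) and 2 of 33 (6.06%, 0.743 to 20.2%). From 5000 to below 10000 genes they were 26 of 38 (68.4%, 51.3 to 82.5%) and 28 of 52 (53.8%, 39.5 to 67.8%). At 10000 genes or more they were 37 of 41 (90.2%, 76.9 to 97.3%) and 21 of 27 (77.8%, 57.7 to 91.4%). The intervals of the genotypes were apart from 2000 to below 5000 genes and overlapped in the other classes. These intervals treat pooled cells as independent and leave out the spread between plates, which are the replicates. Whether detection differed by genotype within a class was therefore not tested. Plates are pooled in these classes and contribute unequally, with 31 of the 54 poorest CA-ERBB2 libraries from plate 3 and 32 of the 41 richest from plate 1.

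**Figure D2:**
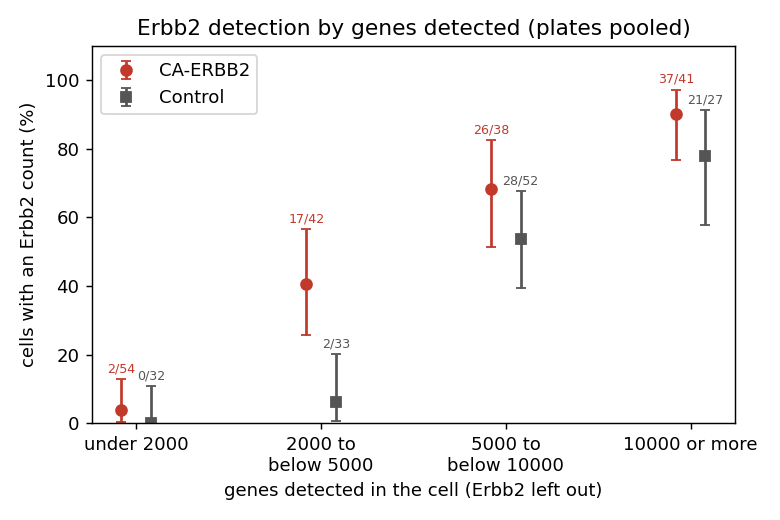
Share of cells with an Erbb2 count (percent, y axis) in 4 classes of genes detected per cell (x axis), with plates pooled. Points are shares, bars are 95% exact binomial intervals, and the labels give cells with Erbb2 over all cells. The CA-ERBB2 share goes from 3.7% to 90.2%.

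To compare cells of like library complexity, members were paired 1 to 1 with Erbb2-undetected cells of the same plate with a like number of genes detected (ratios within pairs of 0.848 to 1.18). This gave 34 pairs, namely 12, 14 and 8 on plates 1 to 3, and left out 48 members (31, 8 and 9 by plate), mostly gene-rich ones. The matched medians were 9059 and 9075 genes on plate 1, 3278.5 and 3255 on plate 2, and 3200.5 and 3053 on plate 3. The median share of mitochondrial counts in matched cells was 2.97% in members and 2.82% in Erbb2-undetected cells on plate 1, 2.88% and 3.45% on plate 2, and 4.16% and 3.78% on plate 3. Matched members had Erbb2 medians of 65.1, 12.5 and 90.0 CPM.

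A cell was counted as carrying the network when Spp1, Timp1, Mmp9 and Dmp1 each reached 100 CPM. On plate 1, 3 of 43 members carried it (6.98%, 95% exact interval 1.46 to 19.1%) and 0 of 16 Erbb2-undetected cells (a limit of 18.8% as 3 of 16 cells, exact upper bound 20.6%). On plate 2 the network was carried by 8 of 22 members (36.4%, 17.2 to 59.3%) and 6 of 36 Erbb2-undetected cells (16.7%, 6.37 to 32.8%). On plate 3 it was carried by 11 of 17 members (64.7%, 38.3 to 85.8%) and 8 of 41 Erbb2-undetected cells (19.5%, 8.82 to 34.9%). The share was higher in members on each plate, by 23.96 ± 19.5 percentage points on average (SD, n = 3 plates), with an exact sign permutation p of 0.25, two-sided, the smallest possible. The intervals of the classes were apart on plate 3 and overlapped on the others, and without plate 3 the mean difference was 13.3 percentage points. None of the 144 Control cells carried the network. The exact upper bound was 6.98% for the 51 Control cells with Erbb2 and 3.89% for the 93 without (5.88% and 3.23% as 3 cells of each number).

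In matched cells the network was carried by 2 of 12 members and 0 of 12 Erbb2-undetected cells on plate 1, by 5 of 14 and 3 of 14 on plate 2, and by 6 of 8 and 2 of 8 on plate 3. The difference was 27.0 ± 20.0 percentage points (SD, n = 3 plates), again with an exact permutation p of 0.25, and the intervals of the classes overlapped on every plate. Wells A12 to D12 held 7 of the 22 network members. Without them the network was carried by 2 of 39, 5 of 18 and 8 of 14 members and by 0 of 16, 6 of 36 and 7 of 40 Erbb2-undetected cells, a mean difference of 18.6 percentage points.

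The network and the Erbb2 count were far from interchangeable. Of 36 network cells, 22 had Erbb2 counts and 14 had none, and 60 of the 82 members did not carry the network. All 3 network cells of plate 1 had Erbb2 counts, as did 8 of 14 on plate 2 and 11 of 19 on plate 3. The 14 network cells without Erbb2 counts had poorer libraries, with a median of 2916 genes, against 6843.5 genes in the 22 with Erbb2. Network members also covered the whole range of Erbb2 levels, from 0.268 to 1125 CPM, and 3 of them were below 1 CPM. By plate, their median Erbb2 level was 225 CPM against 119 in other members on plate 1, 41.7 against 26.04 on plate 2, and 138 against 37.4 on plate 3. Among members at 100 CPM of Erbb2 or more, 2 of 23 carried the network on plate 1, 2 of 5 on plate 2 and 6 of 8 on plate 3. Among members below 100 CPM, 1 of 20, 6 of 17 and 5 of 9 carried it. The share was thus higher at 100 CPM or more on each plate, but on few cells. On plate 2 the shares were close (2 of 5 and 6 of 17), and the difference was not tested.

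Most members had either none or all of the 4 genes at 100 CPM. Of 82 members, 43 had none, 8 had 1 gene, 2 had 2 genes, 7 had 3 genes and 22 had all 4. Of 93 Erbb2-undetected cells, 52 had none, 16 had 1 gene, 4 had 2 genes, 7 had 3 genes and 14 had all 4. The plates differed in this. None of the genes was at that level in 33 of 43 members and 7 of 16 Erbb2-undetected cells on plate 1, in 8 of 22 and 19 of 36 on plate 2, and in 2 of 17 and 26 of 41 on plate 3. Of the 16 Erbb2-undetected cells with 1 gene, 8 were on plate 1. Among network cells, Spp1 took a larger part of the library where Erbb2 was seen. On plate 2 its median was 274270 CPM in the 8 network cells with Erbb2 and 90672 CPM in the 6 without, and on plate 3 it was 188046 CPM in 11 and 104473 CPM in 8. Median Timp1 went the other way on plate 2 (13898 and 42120 CPM) and not on plate 3 (26425 and 22690 CPM).

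For tests across genes, the counts of the matched cells were summed by plate and class. In such sums, more cells with a transcript and more RNA per cell cannot be told apart. Members were compared with Erbb2-undetected cells by edgeR's quasi-likelihood test with the plate as a block. No gene of 14171 was called at an adjusted p under 0.05 (0%), and 152 had an unadjusted p under 0.05. In this and the other main edgeR fits below, that was less than the share of 0.05 that evenly spread p-values would give. A lack of calls by edgeR therefore carries little weight. DESeq2 on the same sums called 511 genes (3.61%), 196 higher and 315 lower in members. The call of any single gene thus rests on the tool, and edgeR values are given below as sizes with their errors. Of all genes, 10.7% were higher in members on all 3 plates and 12% were lower on all 3.

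All 4 network genes were higher in matched members on all 3 plates. They are not 4 independent results, since the same 13 matched members carried the whole network. Spp1 stood at 35361 CPM in members and 655 CPM in Erbb2-undetected cells on plate 1, at 211214 and 51054 CPM on plate 2, and at 263646 and 36515 CPM on plate 3. Its log2 fold change was 3.46 ± 0.72 (SE; unadjusted p = 0.0022, edgeR adjusted p = 1, DESeq2 adjusted p = 0.042). The sum was higher in members on each plate, but Spp1 in the Erbb2-undetected cells of plates 2 and 3 was above that of the members of plate 1. Over its 14 alternative analyses the log2 fold change ran from 1.56 to 4.33, lowest without matching, with adjusted p between 0.042 and 1.

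Dmp1 stood at 1572 and 41.5 CPM in members and Erbb2-undetected cells on plate 1, at 2100 and 1389 CPM on plate 2 and at 6054 and 421 CPM on plate 3, a log2 fold change of 3.35 ± 0.98 (SE; edgeR adjusted p = 1). Mmp9 stood at 1698 and 124 CPM, 5410 and 2718 CPM, and 5753 and 2009 CPM in the same order, a log2 fold change of 2.05 ± 0.58 (SE; edgeR adjusted p = 1). Timp1 stood at 3723 and 27.7 CPM, 23757 and 20978 CPM, and 34017 and 6469 CPM, a log2 fold change of 2.87 ± 1.34 (SE; edgeR adjusted p = 1). The gap was widest on plate 1 for Timp1 and narrow on plate 2 for Timp1 and Dmp1. These values moved with the analysis. Matched on genes and total counts together, the log2 fold change was 0.058 for Mmp9 and 1.92 for Timp1, and without matching it was 0.92 for Mmp9, 1.14 for Timp1 and 1.92 for Dmp1. Without plate 1 it was 1.26 for Mmp9, 1.29 for Timp1 and 2.22 for Dmp1. DESeq2 called none of these 3 genes (adjusted p = 0.30, 0.40 and 0.076 for Timp1, Mmp9 and Dmp1).

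**Figure D3:**
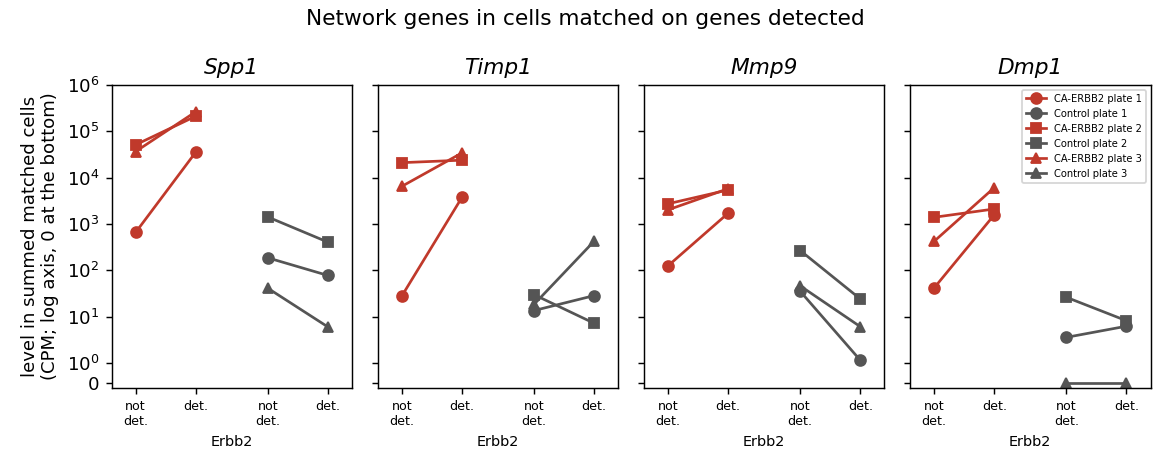
Levels of the 4 network genes in summed matched cells (CPM on a log axis, 0 at the bottom) without (not det.) and with (det.) Erbb2 counts, joined by plate, in CA-ERBB2 (red) and Control (grey). All 12 CA-ERBB2 lines go up, as for Spp1 on plate 1 from 655 to 35361 CPM, and the Control lines of Spp1 and Mmp9 go down.

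Cell by cell, the difference was less regular than in the sums, and the classes overlapped. On plate 1 matched members ran from 0 to 240549 CPM of Spp1 (median 2.75) and matched Erbb2-undetected cells from 0 to 5152 CPM (median 46.5). In the 34 matched pairs, Spp1 was higher in the member in 23 pairs, lower in 9 and equal in 2. By plate it was higher in the member in 6 of 12, 9 of 14 and 8 of 8 pairs. Mmp9 was higher in the member in 15 pairs and lower in 9, and Dmp1 in 15 and 7. On plate 1, where the sums differed most, 2 matched members carried the network and the other 10 did not. The Spp1 median over all cells of plate 1 was in fact lower in members (0.304 CPM) than in Erbb2-undetected cells (46.5 CPM), while on plate 3 it was 119054 and 7.93 CPM.

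The other response genes named by the study on these cells gave a mixed picture, and 8 of the 9 passed the filter on low counts (Hpx did not). Of these 8, 7 had a positive log2 fold change, 2 were higher in members on all 3 plates and none was lower on all 3. Ank, a membrane transporter of pyrophosphate, was higher on all 3 plates: 488 and 32.2 CPM on plate 1, 1128 and 493 CPM on plate 2, and 2013 and 137 CPM on plate 3 (log2 fold change 3.05 ± 0.71 SE, edgeR adjusted p = 1, DESeq2 adjusted p = 0.071). Il12a, a subunit of interleukin 12 and also higher on all 3, stood at 15.4 and 0.0174 CPM, 477 and 195 CPM, and 714 and 0 CPM. The bone gla protein genes Bglap and Bglap2 were higher in members on plates 1 and 3 and lower on plate 2, where Bglap stood at 186 CPM in members and 287 CPM in Erbb2-undetected cells. The tetraspanin Cd63 (log2 fold change 0.73 ± 0.45 SE), the prostacyclin synthase Ptgis (1.80 ± 1.03) and the actin-binding Tmsb4x (-0.04 ± 0.37) changed direction between plates. Serpinb2, a plasminogen activator inhibitor, was at 0 in both classes of plate 2. DESeq2 called 4 of the 8 higher in members, namely Bglap, Bglap2, Il12a and Serpinb2, which share a level of 0 or close to it in Erbb2-undetected cells of at least 1 plate. Bglap and Bglap2 are near-identical neighbors whose reads could not be fully told apart.

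Genes that report on the pathway itself showed no shared direction in matched members. Of 17 ERK feedback and target genes, 16 were tested, with 11 higher and 5 lower, 4 higher on all 3 plates and 2 lower on all 3. Their median log2 fold change was 0.28, against -0.04 over all genes. The ETS factor Etv4 stood at 35.9 and 5.47 CPM, 80.8 and 54.4 CPM, and 21.7 and 6.47 CPM in members and Erbb2-undetected cells of plates 1 to 3 (log2 fold change 1.68 ± 1.34 SE, edgeR adjusted p = 1). The survival gene Ier3 was lower on all 3 plates, most on plate 2 with 0.0282 and 185 CPM. Of the 11 tested immediate early genes, 3 were higher and 8 lower, with Fos lower in members on all 3 plates (3209 and 3471 CPM, 1259 and 2032 CPM, 1047 and 2266 CPM, log2 fold change -0.64 ± 0.33 SE, edgeR adjusted p = 1). FOXO targets, which AKT represses through FOXO, divided evenly, with 5 higher and 5 lower.

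Of 14 ERBB receptors and ligands, 7 passed the filter, with 4 higher and 3 lower. Erbb3, the usual partner of ERBB2, stood at 22.9 and 3.22 CPM on plate 1, 309 and 0 CPM on plate 2 and 0.235 and 0 CPM on plate 3. Its counts came mostly from 1 cell, which held 86.7% of the Erbb3 counts of all matched cells. Of 9 tested attenuators of ERBB signaling, 5 were higher and 4 lower. Rnf41, an E3 ligase that lowers ERBB3, was higher on all 3 plates (13.4 and 5.73 CPM, 14.8 and 0.143 CPM, 56.5 and 0.910 CPM, edgeR adjusted p = 1, DESeq2 adjusted p = 0.027). Of its counts in matched cells 45.2% came from 1 cell. Its log2 fold change was 4.92 in the sums and 0.88 with cells weighted equally. Of 9 genes for CD44 and integrin subunits, among which are the osteopontin receptors, 4 were higher and 5 lower. Among them the integrin subunit Itgb3 stood at 6.60 and 0 CPM, 5.42 and 0 CPM, and 67.4 and 2.23 CPM (edgeR adjusted p = 1, DESeq2 adjusted p = 0.00081), with 54.1% of its counts in 1 cell. Cd44 stood at 25.3 and 24.96 CPM, 36.3 and 11.002 CPM, and 98.7 and 8.70 CPM (log2 fold change 1.74 ± 1.49 SE, edgeR adjusted p = 1).

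Cell type markers were also compared in matched cells. Of 12 tested supporting cell markers, 5 were higher and 7 lower in members. Serpine2, a secreted protease inhibitor, was higher on all 3 plates (1307 and 938 CPM, 2979 and 1850 CPM, 8098 and 1581 CPM, edgeR adjusted p = 1), and S100a1 was lower on all 3. Without matching the log2 fold changes of both were close to 0 (0.062 and 0.039). Of 12 tested markers of the greater epithelial ridge, 2 were higher and 10 lower, with a median log2 fold change of -1.45. Tectb, a protein of the tectorial membrane, stood at 34.6 and 954 CPM, 214 and 575 CPM, and 274 and 3762 CPM, a log2 fold change of -3.38 ± 0.75 (SE; edgeR adjusted p = 1, DESeq2 adjusted p = 0.038). Of its counts in matched cells 38.6% came from 1 cell, and the log2 fold change was -1.23 without matching and -0.92 with detection after thinning. Cst3 was lower on all 3 plates as well, with a log2 fold change of -1.49 ± 0.42 (SE; edgeR adjusted p = 1). Of 8 mesenchyme markers, 4 were higher and 4 lower. Their summed level was higher in members on plates 1 and 3 (10995 and 6481 CPM, 5849 and 3175 CPM) and lower on plate 2 (4697 and 5839 CPM). Of 11 tested cell cycle genes, 3 were higher and 8 lower. Among the smaller lists, 2 of 6 tested hair cell markers, 1 of 5 epithelial markers, 0 of 4 Hensen cell markers and 0 of 3 red blood cell genes were higher. Fgfr3 and the Rosa26 transcript, which drive the recombinase and the reporter, were both lower in members, with 0 of 2 in the same direction on all 3 plates.

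Markers of other cell types moved with some of these values. Of 6 glial markers, 5 were tested and 4 were higher in members. The summed glial level was 3026, 633 and 35.7 CPM in members and 113, 88.5 and 118 CPM in Erbb2-undetected cells of plates 1 to 3, with Foxd3 not tested. Of 10 bone-forming markers, which include Bglap and Bglap2, 8 were tested and 5 were higher, with sums of 297, 1981 and 1456 CPM in members and 269, 1371 and 80.5 CPM in Erbb2-undetected cells. The bone sialoprotein gene Ibsp was higher on all 3 plates (18.6 and 0 CPM, 1116 and 378 CPM, 120 and 2.02 CPM, edgeR adjusted p = 1), with counts in 7 matched members and 2 matched Erbb2-undetected cells. The osteocyte marker Sost had no count in either class. Of 12 macrophage and osteoclast markers, 4 passed the filter, 1 of them higher and 3 lower in members. Their summed level was 233, 333 and 810 CPM in members and 158, 782 and 742 CPM in Erbb2-undetected cells. The macrophage markers Ptprc, Tyrobp, Ctss, Aif1 and Adgre1 had no counts in matched members and counts in 4 or 5 matched Erbb2-undetected cells. Over all cells they were about as common in members as in Erbb2-undetected cells. Ptprc was seen in 6 and 6 cells, Tyrobp in 9 and 9, Ctss in 5 and 6, Aif1 in 8 and 5, and Adgre1 in 5 and 6. Other genes of the list were seen in both matched classes, such as Csf1r in 13 and 12 cells and Ctsk in 19 and 19. The part of these cell types in the differences was not tested.

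Across the whole table, the 5 genes with the smallest p among those higher in members on all 3 plates were Mbp, Fam20c, Fgf3, Spp1 and Ccnd2, none of them called by edgeR. Fam20c, the kinase that phosphorylates secreted proteins including osteopontin and DMP1, stood at 167 and 14.2 CPM, 519 and 103 CPM, and 946 and 149 CPM (log2 fold change 2.85 ± 0.56 SE, edgeR adjusted p = 1, DESeq2 adjusted p = 0.058). No cell held more than 13.96% of the Fam20c counts of the matched cells. The cyclin Ccnd2 stood at 1348 and 438 CPM, 3638 and 156 CPM, and 1787 and 222 CPM (log2 fold change 3.05 ± 0.64 SE, edgeR adjusted p = 1), with 44.2% of its counts in 1 cell. Mbp, a myelin protein gene, and the growth factor gene Fgf3 rested on 1 cell each, which held 89.5% and 60.2% of their counts.

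Of the 5 leading genes lower on all 3 plates, Apoe, a lipid carrier abundant in macrophages, stood at 194 and 779 CPM, 184 and 1687 CPM, and 57.2 and 2790 CPM (log2 fold change -3.55 ± 0.78 SE, edgeR adjusted p = 1, DESeq2 adjusted p = 0.031). The macrophage gene Ms4a7 and the chemokine Ccl2 had no counts in matched members and 6312 and 7465 counts in matched Erbb2-undetected cells, from 6 and 5 cells. Over all 82 members, Ms4a7 had counts in 7 cells and Ccl2 in 9. Tectb and the kinase gene Rps6ka4 completed the list.

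Within the members, the rank correlation of the Erbb2 level with the network level had no shared sign across plates. It ranks all members, including the many that did not carry the network. By median, network members had more Erbb2 than other members on each plate, as given above. The rank correlation (Spearman's rho, across cells of 1 plate, which share a plate and differ in depth) between Erbb2 and the summed CPM of the 4 network genes was -0.23 on plate 1 (n = 43 cells), -0.16 on plate 2 (n = 22) and 0.20 on plate 3 (n = 17). For Spp1 alone it was -0.13, -0.13 and 0.24, for Timp1 -0.02, 0.16 and -0.11, for Mmp9 -0.07, 0.01 and 0.25, and for Dmp1 -0.04, -0.0047 and 0.40. The signs differed between plates for each of the 4 genes. Since the network genes can take a large part of a library, Erbb2 was also scaled to the counts left without them, which gave -0.21, -0.09 and 0.24. Without wells A12 to D12 the values were -0.23, -0.27 and 0.18. Over all CA-ERBB2 cells, those at 0 included, the values were -0.27, 0.24 and 0.54. The Erbb2 level also went with library complexity, with a rank correlation to genes detected of 0.50, 0.47 and 0.02.

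**Figure D4:**
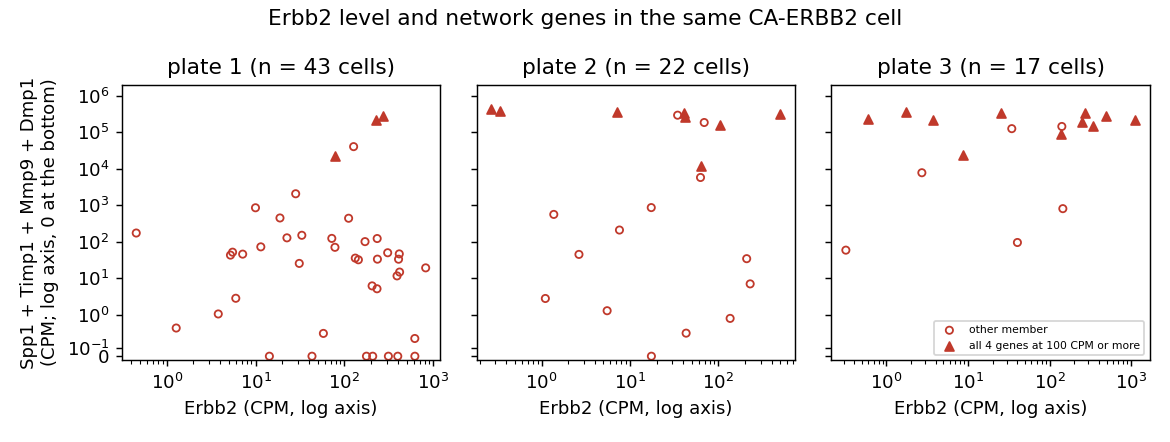
Erbb2 level (CPM, log axis) against the summed level of Spp1, Timp1, Mmp9 and Dmp1 (CPM, log axis with 0 at the bottom) in each Erbb2-detected CA-ERBB2 cell, by plate. Filled triangles carry all 4 genes at 100 CPM or more and open circles do not. Rank correlations were -0.23, -0.16 and 0.20, and triangles lie at both ends of the Erbb2 range on plates 2 and 3.

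Genes downstream of ERK were compared with the Erbb2 level in the same way. Of the 17 ERK feedback and target genes, 10 had a positive rank correlation with Erbb2 on all 3 plates and none a negative one on all 3, with a median rho of 0.20. Over the 16991 genes tested in members, 29.3% were positive on all 3 plates, and the median rho was 0.08, 0.21 and -0.0039 by plate. The 10 were Dusp4, Dusp6, Spry1, Spry2, Spry4, Etv1, Etv4, Etv5, Phlda1 and Epha2. The remaining genes of the list changed sign between plates, such as Ier3 with -0.37, 0.15 and -0.38. For Dusp6 the values were 0.70, 0.39 and 0.05, and for Etv4 0.70, 0.14 and 0.16. Of the 9 other response genes 8 were positive on all 3 plates, with lower values (median 0.18), such as 0.20, 0.24 and 0.21 for Ank and 0.11, 0.17 and 0.47 for Il12a. None of the 12 immediate early genes was positive on all 3 plates. The correlation with genes detected given above moves with these values, and its part in them was not tested.

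Members with an Erbb2 level above the median of their plate were compared with those at or below it, in sums by plate. The higher-Erbb2 groups held 21, 11 and 8 cells with median Erbb2 of 272, 69.2 and 260 CPM, and the lower-Erbb2 groups 22, 11 and 9 cells with 20.7, 5.52 and 3.78 CPM. Median genes detected were 12283 and 9830.5 on plate 1, 7997 and 3596 on plate 2, and 5883.5 and 6674 on plate 3. The network was carried by 2 of 21 and 1 of 22 cells, 5 of 11 and 3 of 11 cells, and 6 of 8 and 5 of 9 cells. edgeR called no gene of 16991 (0%), with 691 at an unadjusted p under 0.05, and DESeq2 called 706 (4.16%). Wells A12 to D12 held 4 of the 11 higher-Erbb2 cells of plate 2 and none of the lower-Erbb2 cells there. Without these wells the list counts were 13 of 17 higher for ERK feedback and target genes, 12 of 13 higher for supporting cell markers, 5 of 5 higher for epithelial markers, 5 of 7 higher for hair cell markers and 7 of 8 lower for mesenchyme markers. Of all genes, 15.6% were higher in the higher-Erbb2 group on all 3 plates and 12.7% lower.

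Of the 4 network genes, only Mmp9 was higher in the higher-Erbb2 group on all 3 plates, at 722 and 205 CPM, 4894 and 2953 CPM, and 10015 and 5386 CPM (log2 fold change 1.14 ± 0.32 SE, edgeR adjusted p = 0.998). Spp1 stood at 15057 and 1758 CPM on plate 1, 106209 and 238646 CPM on plate 2 and 200789 and 156943 CPM on plate 3 (log2 fold change 0.69 ± 0.82 SE, edgeR adjusted p = 0.998). Without plate 1 its log2 fold change was -0.39. Timp1 was lower in the higher-Erbb2 group on plate 3 and Dmp1 on plate 2. The median log2 fold change of the 4 genes was 1.08, against 3.11 between matched members and Erbb2-undetected cells, and this difference was not tested.

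The pathway brake Dusp6 was higher in the higher-Erbb2 group on all 3 plates, with 510 and 104 CPM, 346 and 200 CPM, and 671 and 316 CPM (log2 fold change 1.38 ± 0.44 SE, edgeR adjusted p = 0.998), and without wells A12 to D12 its log2 fold change was 0.81. Of the 17 ERK feedback and target genes, 13 were higher and 4 lower, 7 higher on all 3 plates, with a median log2 fold change of 0.91 against 0.17 over all genes. Errfi1, an inhibitor of ERBB kinases, was higher on all 3 plates (58.3 and 38.9 CPM, 56.7 and 31.1 CPM, 63.0 and 25.7 CPM). The ligand gene Areg, encoding amphiregulin, had 834 counts in the higher-Erbb2 groups and 0 in the lower-Erbb2 groups, in 10 cells. Without wells A12 to D12, or with only cells under 20% mitochondrial counts, Areg did not pass the filter on low counts. Its log2 fold change was 10.78 in the sums and 0.79 with cells weighted equally. Fos was lower on all 3 plates (1315 and 3467 CPM, 1049 and 2012 CPM, 1599 and 3446 CPM, log2 fold change -1.15 ± 0.28 SE, edgeR adjusted p = 0.998), and so was Egr1. With cells weighted equally the value for Fos was -0.23. Fos and Egr1 respond within minutes to many stimuli, cell handling included.

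Cell type markers also differed with the Erbb2 level. Of 14 supporting cell markers, 11 were higher with more Erbb2 and 8 were higher on all 3 plates, with a median log2 fold change of 1.87. Prss23 stood at 379 and 12.6 CPM, 111 and 40.5 CPM, and 55.2 and 5.25 CPM (log2 fold change 3.27 ± 0.83 SE, edgeR adjusted p = 0.998, DESeq2 adjusted p = 0.0044). Without wells A12 to D12 its log2 fold change was 0.29. Lfng, a modulator of NOTCH, stood at 26.7 and 1.32 CPM, 13.8 and 0.652 CPM, and 0.489 and 0 CPM. Summed over the markers, however, the level was higher on plates 1 and 3 (5942 and 1603 CPM, 10062 and 4946 CPM) and lower on plate 2 (4898 and 7705 CPM). All 6 epithelial markers were higher, 4 of them on all 3 plates, with the keratin Krt18 at 225 and 17.8 CPM, 154 and 8.25 CPM, and 122 and 1.30 CPM (log2 fold change 4.75 ± 0.81 SE, edgeR adjusted p = 0.998, DESeq2 adjusted p = 7.2e-07). All 8 tested hair cell markers were higher, 2 of them on all 3 plates. Their summed level was higher on plates 1 and 2 (338 and 56.2 CPM, 770 and 91.7 CPM) and lower on plate 3 (43.1 and 66.5 CPM). Ccer2 stood at 147 and 2.22 CPM, 261 and 0.326 CPM, and 1.03 and 0 CPM, with counts in 13 members. Of these Ccer2 counts 45.5% came from 1 cell.

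Mesenchyme markers ran the other way. Of 8, 6 were lower in the higher-Erbb2 group and 5 were lower on all 3 plates, with a median log2 fold change of -1.13. Col3a1 stood at 156 and 1659 CPM, 550 and 1195 CPM, and 195 and 817 CPM (log2 fold change -2.19 ± 0.52 SE, edgeR adjusted p = 0.998, DESeq2 adjusted p = 0.039). Of 13 markers of the greater epithelial ridge, 8 were lower and 6 lower on all 3 plates, among them the proteoglycan gene Dcn, which mesenchyme also expresses (334 and 1977 CPM, 475 and 1195 CPM, 196 and 814 CPM). Of 6 glial markers 5 were lower. Of 9 tested macrophage and osteoclast markers, 7 were higher, none of them on all 3 plates. Of 9 tested bone-forming markers 4 were lower on all 3 plates, including Alpl. Of 12 cell cycle genes, 9 were lower, and Birc5 was lower on all 3 plates (2.12 and 56.4 CPM, 29.4 and 129 CPM, 4.45 and 65.6 CPM, edgeR adjusted p = 0.998). In summed levels the epithelial markers stood at 2682 and 151 CPM, 1177 and 630 CPM, and 430 and 208 CPM, and the mesenchyme markers at 1471 and 7709 CPM, 5369 and 6539 CPM, and 5906 and 6890 CPM. Whether Erbb2 differed between cells of a type or between types in these members cannot be told apart in the sums.

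**Figure D5:**
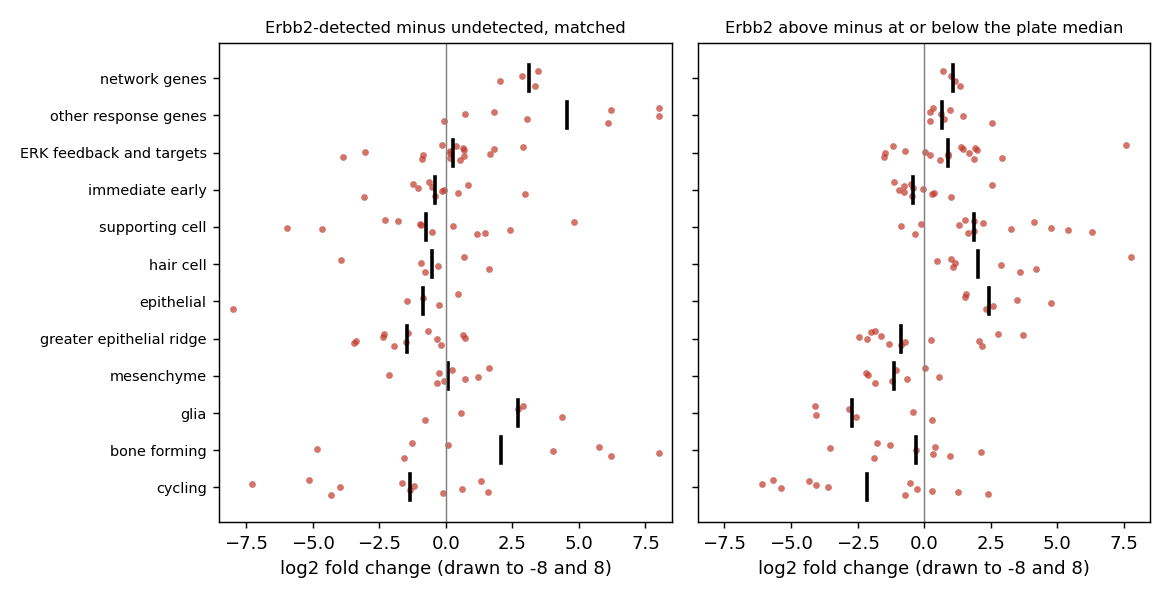
Log2 fold changes (x axis, values beyond -8 and 8 drawn at the limit) of the tested genes of 12 lists (rows) in matched Erbb2-detected against Erbb2-undetected cells (left) and in members with Erbb2 above against at or below the plate median (right). Points are genes and black bars list medians. Network genes lie to the right of 0 in both panels (medians 3.11 and 1.08), while supporting cell markers have a median of -0.73 on the left and 1.87 on the right.

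In the whole table, the leading genes higher with more Erbb2 on all 3 plates were Ccer2, F5, Cyp26b1, Slitrk6 and Krt18. The retinoic acid hydroxylase Cyp26b1 stood at 227 and 11.4 CPM, 130 and 10.7 CPM, and 92.3 and 1.55 CPM (log2 fold change 4.58 ± 0.72 SE, edgeR adjusted p = 0.998, DESeq2 adjusted p = 2.9e-07). Slitrk6, a neurite-guiding receptor of the inner ear, stood at 383 and 19.1 CPM, 146 and 2.94 CPM, and 26.6 and 3.27 CPM (log2 fold change 4.32 ± 0.73 SE, edgeR adjusted p = 0.998). F5 rested on 1 cell with 93.5% of its counts in members. The leading genes lower with more Erbb2 were Car3, Mgp, Gm21738, Dab2 and Sostdc1. Of the Gm21738 counts in members, 67.0% came from 1 cell. Car3, a carbonic anhydrase, stood at 238 and 2381 CPM, 85.3 and 1626 CPM, and 273 and 1863 CPM (log2 fold change -3.44 ± 0.42 SE, edgeR adjusted p = 0.998, DESeq2 adjusted p = 2.1e-05). The matrix gla protein gene Mgp stood at 90.4 and 736 CPM, 617 and 2735 CPM, and 314 and 2758 CPM (log2 fold change -2.77 ± 0.36 SE, edgeR adjusted p = 0.998). For both genes the plate sums of the groups did not overlap across the 3 plates. Both were picked for their small p, and the share of all genes with such separation was not determined. Overlap of the cells was not examined.

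The same division of Control cells served as background. Of 23 matched Control pairs (13, 5 and 5 by plate), edgeR called no gene of 15391 (0%), with 538 at an unadjusted p under 0.05. Spp1 was lower in Control cells with Erbb2 on all 3 plates, at 77.0 and 185 CPM, 403 and 1410 CPM, and 5.96 and 40.8 CPM (log2 fold change -1.94 ± 0.47 SE, edgeR adjusted p = 0.999). Mmp9 was lower as well, at 1.14 and 35.1 CPM, 23.99 and 266 CPM, and 6.05 and 45.9 CPM (log2 fold change -3.77 ± 0.79 SE, edgeR adjusted p = 0.999). The sums rested on few cells, since by pairs Spp1 was higher in the Control cell with Erbb2 in 11 of 23 pairs and lower in 8. Timp1 and Dmp1 changed direction between Control plates. Supporting cell markers were higher in Control cells with Erbb2 for 13 of 14 genes, 4 of them on all 3 plates. ERK feedback and target genes were higher for 11 of 16, with 6 on all 3. Their median log2 fold changes were 1.53 and 0.88, against -0.015 over all genes. The share of all genes higher on all 3 Control plates was not determined. Glial markers were higher for 5 of 5 tested genes in Control cells with Erbb2, and macrophage and osteoclast markers were lower for 10 of 11. A fit with both genotypes tested whether the effect of Erbb2 detection differed between them. No gene of 18240 was called by edgeR (0%), 398 had an unadjusted p under 0.05, and DESeq2 called 459. The difference of effects was 5.45 ± 0.87 for Spp1 and 5.87 ± 0.84 for Mmp9 on the log2 scale (SE; unadjusted p = 0.00013 and 5.54e-05, edgeR adjusted p = 1 for each).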

How the data were processed

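Single GFP+ cells of 354 wells were profiled with SMART-Seq Single PLUS. After adapter trimming, reads were aligned by the authors (STAR 2.7.6a, GRCm38, Gencode M25) and assigned to genes by strand (featureCounts, Subread 2.0.1). The deposited values are raw read counts per gene and cell, not normalized, and were used as deposited. The number in a sample's title was taken as its plate. Members and gene lists were chosen with earlier results of these data known.

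Cells under 100000 counts were left out (2 CA-ERBB2, 33 Control). Genes detected excluded Erbb2, as did every fit. Members were matched within plate by optimal assignment on genes detected. Counts were summed by plate and class (13642140 to 41633283 per sum of matched cells, both genotypes), filtered with filterByExpr, scaled by TMM and tested with edgeR 4.0.16 (quasi-likelihood test, plate as block, Benjamini-Hochberg adjustment at 0.05). CPM of sums are TMM-scaled, CPM of cells are not. Classes of a plate were paired because they share the plate. DESeq2 1.42.0 and limma 3.58.1 (on mean log2(CPM + 1)) served as alternatives. Plate values were tested with an exact permutation test of signs. Named genes were all of the network and the other response genes, at most 2 per other list and 5 per direction over the table, by smallest p with the same direction on all plates. A single gene among those the rule names is left out of the text and is not reported here. Where Dusp4 and other ERK targets or markers are named outside this rule, they were chosen after their values were seen. Gene coordinates are from Gencode M21 on GRCm38. The cells had no UMIs, and doublets were handled by scatter discrimination in the sort.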

Additional observations from a re-analysis of the deposited data

Results flagged for a closer look

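Spp1 and Mmp9 moved in opposite directions with Erbb2 detection in the genotypes. In matched CA-ERBB2 cells each was higher with Erbb2 on all 3 plates, and in matched Control cells each was lower with Erbb2 on all 3 plates. The difference of the effects was 5.45 on the log2 scale for Spp1 and 5.87 for Mmp9. By edgeR the adjusted p over 18240 genes was 1 for each, so neither difference was called. By pairs the Control direction was not regular: Spp1 was higher in the Control cell with Erbb2 in 11 of 23 pairs and lower in 8, and Mmp9 higher in 4 and lower in 3. Control levels were low, at most 1410 CPM for Spp1 and 266 CPM for Mmp9 in a sum of 5 cells.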

How the results depend on the processing

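Results were computed again under 14 alternatives for detection and 9 for the Erbb2 level. The number of genes called by detection stayed 0 under each alternative except DESeq2 (511). For the Erbb2 level it was 706 with DESeq2, 4 without a filter on low counts (among them Ccer2, Car3 and Mgp) and 0 otherwise, and for the difference between genotypes 459, 2 and 0 in the same order. Leaving out 1 plate at a time gave 0 calls in each fit. The fits without the replicate block also gave 0 calls.

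The difference in the share of network cells kept its direction under every alternative, from 12.2 percentage points with all 4 genes at 1000 CPM to 32.4 without plate 1, and ran from 13.3 to 32.4 when 1 plate was left out. The difference in genes detected was 51.7 in matched cells, as the matching sets it, and 2554.5 to 4044.5 when 1 plate was left out. The mean rank correlation of Erbb2 with the network was -0.06 and became 0.17 when cells without Erbb2 were included. Scaling Erbb2 without the network genes, added after seeing the data, gave -0.02.

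Of 1056 values of named genes under alternatives, 27 changed sign, in 18 comparisons of a gene, and none of these was called by edgeR. For detection, without matching, these were Cd63 (-0.062), S100a1 (0.039), Lum (-0.84) and Ccnb2 (1.73). Matched on genes and total, they were Fos (0.12), Lum (-0.26), Pdgfra (1.06) and Rrm2 (0.11). With detection after thinning they were S100a1 (0.028), Lum (-0.13) and Mbp (-0.18), and with Erbb2 at 10 CPM or more Fosb (0.45). Tmsb4x gave 0.50 without wells A12 to D12 and -0.42 to 0.44 when 1 plate was left out, positive without plate 2. For the Erbb2 level, without the replicate block, they were Spp1 (-0.30), Timp1 (-0.019), Bglap (-0.86), Bglap2 (-0.35), Ptgis (-0.36) and Tmsb4x (-0.029). When 1 plate was left out, values that were negative without plate 1 ran from -0.39 to 1.77 for Spp1, from -1.02 to 1.84 for Bglap, from -0.38 to 2.44 for Bglap2, from -0.45 to 0.68 for Ptgis, from -0.077 to 1.38 for Ank and from -0.13 to 0.69 for Tmsb4x. Sesn3 gave 0.42 with cells weighted equally. The cause was not tested. With 3 plates no exact test over plates can pass 0.05, and the 34 matched pairs leave most gene-rich members out.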
